A study of Mus musculus with 36 samples.

Results

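Calmodulin, calcineurin and NFAT form one signalling line from calcium to gene transcription, and 9 of its genes were followed in mouse gastrocnemius muscle: the transcription factors Nfatc1, Nfatc2, Nfatc3 and Nfatc4, the calcineurin regulators Rcan1 and Rcan2, the calmodulin genes Calm2 and Calm3, and Ppp3ca, which encodes the alpha catalytic subunit of calcineurin. They were taken by gene name from the 46893 features of the count table. Poly(A) RNA was sequenced from 36 male wild-type C57BL/6 mice, 1 library per mouse and 6 mice per group. The sedentary groups were NFD-C, labelled with the NFD diet, and HFD-C, fed a high-fat diet (HFD). The exercise groups received the same HFD with an in-cage running wheel, which was braked at 2.1 km/day in HFD-25%, 4.2 km/day in HFD-50% and 6.3 km/day in HFD-75%, and was unrestricted in HFD-U, which averaged 8.3 km/day. The HFD mice were 3 to 4 weeks old on arrival and were killed after 12 weeks. The genes were chosen by name with measured group differences of these same mice in view, and the values that weighed in the choice are not recorded, so the p-values below describe these samples and give no independent support.

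Calmodulin is the small protein that binds calcium and then switches on many enzymes, among them calcineurin, a phosphatase made of a catalytic and a regulatory subunit. Calcineurin removes phosphate from the NFATc proteins, which then enter the nucleus and bind DNA at sites with a GGAAA core. In skeletal muscle this line is known for its part in the slow fibre programme, and Rcan proteins bind calcineurin and can inhibit it.

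The libraries held 13060090 to 27981702 counts (median 16710687.5). The skeletal muscle markers summed to between 79830 and 152061 CPM (counts scaled to the library total after TMM normalization) in each group's libraries. The 6 T-cell markers together gave 0.399 to 2.81 CPM, with 1 of them at 0 in all HFD-C mice and 3 in all HFD-75% mice. One feature of the libraries moved with the design: ribosomal-RNA-linked (rRNA-linked) features took a share of counts of 2.01 to 3.80% in NFD-C and 0.551 to 3.54% in HFD-C, but 0.404 to 1.02% in the 24 running mice. The 6 features were LOC118568312, AY036118, Rn5s, Lars2, mt-Rnr1 and mt-Rnr2, with median levels of 1804, 914, 0, 96.7, 1190 and 2016 CPM. The paper counts Lars2 among its genes with a significant response to running distance. The part of running in the share was not tested. HFD-C mice 5 and 6 were on the low side with the runners, and HFD-C mice 1 to 4 on the high side with NFD-C. The fold changes of the 9 genes in the exercise groups are therefore also given against the 2 low-share HFD-C libraries alone; those of the other pathway genes are not.

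All 9 genes were detected in every library, at very different levels. Per transcript length, in FPKM (CPM divided by the deposited gene length in kilobases), the mean level over the 36 mice was 119 ± 27.0 (SD) for Calm3 and 95.2 ± 24.4 for Calm2, followed by 39.5 ± 18.6 for Rcan1, 24.1 ± 3.61 for Ppp3ca and 11.9 ± 4.71 for Rcan2. The NFATc genes were the lowest, with mean FPKM of 4.80 ± 0.762 for Nfatc1, 2.73 ± 0.629 for Nfatc3, 1.73 ± 0.641 for Nfatc2 and 0.786 ± 0.223 for Nfatc4. The widest spread from the lowest to the highest mouse was 5.74-fold for Rcan1, and the narrowest 1.77-fold for Ppp3ca. Ppp3cb, the beta catalytic subunit of calcineurin, had a mean of 59.6 ± 9.24 FPKM, above that of Ppp3ca.

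**Figure D1:**
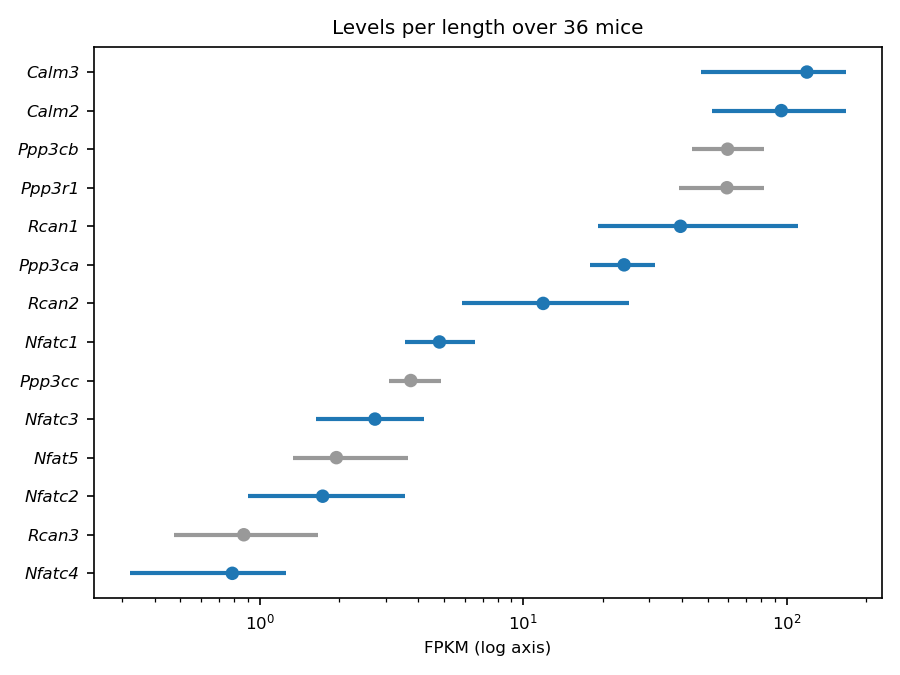
Level per transcript length (FPKM, log axis) of each gene over the 36 mice, with the 9 genes described here in blue and related genes in grey; dots are means and lines run from the lowest to the highest mouse. Calm3 and Calm2 have means of 119 and 95.2 FPKM and the NFATc genes have means at or below 4.80 FPKM.

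Promoters are shown for Rcan1 and Nfatc2, 2 of the genes that RefSeq gives more than 1 start. Gene-level counts add the starts together. Rcan1 has a second start inside the gene, 66091 bases downstream of the first, and Nfatc2 has its starts 11292 bases apart. The 250 bases before a start are from RefSeq on GRCm38.p6, on the strand of the gene, with the NFAT core GGAAA and its reverse complement TTTCC in capitals. The windows are chr16:92466170-92466419 for Rcan1 start 1, chr16:92400079-92400328 for Rcan1 start 2 and chr2:168601658-168601907 for Nfatc2 start 1, all on the minus strand.
Rcan1 start 1: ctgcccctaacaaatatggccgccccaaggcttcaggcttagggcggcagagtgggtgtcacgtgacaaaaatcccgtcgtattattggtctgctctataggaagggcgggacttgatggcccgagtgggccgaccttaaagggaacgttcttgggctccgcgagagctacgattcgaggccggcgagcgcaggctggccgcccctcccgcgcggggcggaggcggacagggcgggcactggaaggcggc
Rcan1 start 2: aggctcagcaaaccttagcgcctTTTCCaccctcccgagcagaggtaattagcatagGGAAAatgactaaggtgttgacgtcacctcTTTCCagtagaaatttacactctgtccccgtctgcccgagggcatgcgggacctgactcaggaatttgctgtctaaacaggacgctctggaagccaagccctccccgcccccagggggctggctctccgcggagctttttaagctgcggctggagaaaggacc
Nfatc2 start 1: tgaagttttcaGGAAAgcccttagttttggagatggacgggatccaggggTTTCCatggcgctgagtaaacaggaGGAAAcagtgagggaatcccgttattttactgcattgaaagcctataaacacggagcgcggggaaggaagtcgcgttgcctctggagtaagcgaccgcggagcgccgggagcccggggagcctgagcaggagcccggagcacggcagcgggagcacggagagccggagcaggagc
The Rcan1 start 2 window held 3 matches on either strand and the Rcan1 start 1 window held 0, while the Nfatc2 start 1 window held 3 and the start 2 window 1. Among 32851 RefSeq windows of the same length, 55.6% held at least 1 match and 6.39% at least 3. A match to 5 letters is a description and not a binding site. Windows were also at hand for Nfatc3, Nfatc4, Rcan2 and Calm3, with 0 to 3 matches each. Among these, Nfatc3 and Rcan2 also had more than 1 start, with 2 and 3 windows, and their sequences are not shown.

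In the GRCm39 coordinates of the deposited table, Nfatc1 lies on chromosome 18 (80649418 to 80756286, minus strand), Nfatc2 on chromosome 2 (168318330 to 168443900, minus), Nfatc3 on chromosome 8 (106785450 to 106857169, plus) and Nfatc4 on chromosome 14 (56062252 to 56071400, plus). Rcan1 lies on chromosome 16 (92188839 to 92263057, minus) and Rcan2 on chromosome 17 (44112243 to 44350407, plus). Calm2 is also on chromosome 17 (87740829 to 87754363, minus), Calm3 on chromosome 7 (16649304 to 16657957, minus) and Ppp3ca on chromosome 3 (136375778 to 136643488, plus). Low-count features overlap Nfatc1, Nfatc3, Rcan1 and Calm3, the most abundant being Gm45972 with a mean count of 29.5 against 4589 for Calm3. Strandedness of the counting is not given in the sources used here, so reads of such pairs may not be fully separated.

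Of the 9 genes, Nfatc2 and Calm2 were lower in most running mice than in every HFD-C mouse. Nfatc2 encodes NFATc2, best known from T cells and also active in muscle cells. In HFD-C its level ran from 16.5 CPM through a median of 19.9 to 30.9 CPM, and in NFD-C from 14.3 through 16.4 to 25.0 CPM. The running mice sat lower. The HFD-25% mice had a lowest, median and highest Nfatc2 level of 9.35, 11.7 and 23.2 CPM, the HFD-50% mice 8.13, 10.8 and 14.3 CPM, the HFD-75% mice 7.85, 11.0 and 11.9 CPM, and the HFD-U mice 11.4, 14.1 and 23.97 CPM. All mice of HFD-50% and HFD-75% were below all HFD-C mice, and 22 of the 24 running mice were. The other 2 were HFD-25% mouse 6 and HFD-U mouse 6. Of the 6 NFD-C mice, 3 were also below every HFD-C mouse, and 20 of the 24 running mice were below all 12 sedentary mice.

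Calm2, one of the calmodulin genes, behaved alike. Its level ran from 127 CPM through a median of 142 to 190 CPM in HFD-C and from 98.3 through 121 to 203 CPM in NFD-C. The lowest, median and highest mouse of HFD-25% had 85.1, 103 and 126 CPM, those of HFD-50% 63.1, 94.9 and 103 CPM, those of HFD-75% 71.0, 98.8 and 121 CPM, and those of HFD-U 93.6, 115 and 136 CPM. HFD-25%, HFD-50% and HFD-75% did not overlap HFD-C, and in all 23 of the 24 running mice were below every HFD-C mouse. NFD-C overlapped every group.

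**Figure D2:**
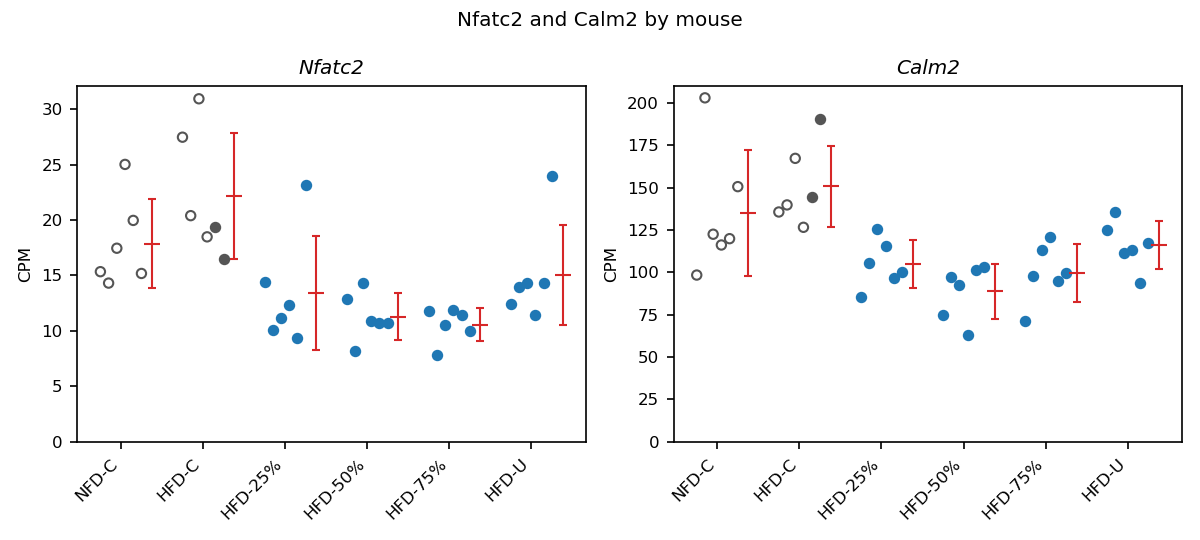
Level of Nfatc2 and Calm2 in CPM (vertical axes from 0) in each of the 36 mice by group; open circles are libraries with a high rRNA-linked share, filled circles those with a low share, grey the sedentary and blue the exercise groups, and red bars the group mean ± SD. The mean of Nfatc2 is 22.2 CPM in HFD-C and 10.6 CPM in HFD-75%, and that of Calm2 is 151 CPM in HFD-C and 88.7 CPM in HFD-50%.

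In fits of each exercise group with HFD-C (edgeR's quasi-likelihood test, with a gene called when its unadjusted p was 0.05 or lower), 2 of the 9 genes were called in each, and both were lower in the runners. The share of all tested genes that was called was 6.98% for HFD-25%, 10.7% for HFD-50%, 5.47% for HFD-75% and 5.46% for HFD-U, and since the 9 were chosen with results in view, nothing is read from their share beside it. Nfatc2 had log2 fold changes of -0.75 ± 0.218 (SE) at 2.1 km/day, -0.98 ± 0.175 at 4.2 km/day, -1.08 ± 0.163 at 6.3 km/day and -0.57 ± 0.194 at 8.3 km/day. After Benjamini-Hochberg adjustment over all genes its edgeR adjusted p was 0.427, 0.108, 0.0834 and 0.661 in that order. By edgeR no exercise group therefore passed an adjusted 0.05 for it, although Nfatc2 had the smallest p of the 12113 genes in HFD-75%. Calm2 had log2 fold changes of -0.55 ± 0.131, -0.77 ± 0.151, -0.61 ± 0.141 and -0.39 ± 0.123 at the same distances, with edgeR adjusted p of 0.298, 0.108, 0.362 and 0.590. With DESeq2 in place of edgeR, 1 of the 9 passed an adjusted 0.05 in HFD-25%, 2 did at 4.2 and at 6.3 km/day, and 0 did in HFD-U. Both genes were called in every edgeR fit that left out 1 mouse of these comparisons. Groups that did not overlap, with the exercise group lower, were seen for 0.18%, 0.388%, 0.14% and 0.183% of all genes at the 4 distances, against 1, 2, 2 and 0 of the 9. The 4 comparisons share the HFD-C mice, so they are not independent of each other.

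The labels do not say that mice of the same number are paired. In HFD-U and HFD-C, the deviations of same-numbered mice from their group means correlated at 0.125 to 0.510 in the 6 pairs. A fit of these groups with the number as a block called 4 of the 9. These were Nfatc2 (log2 fold change -0.59), Calm2 (-0.39), Nfatc1 (-0.25) and Ppp3ca (-0.22). The share of all genes called in that fit is not given here, so nothing is read from this count.

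Set against the 2 low-share HFD-C libraries only, a choice that leaves 2 control mice, Nfatc2 moved nearer to 0 and Calm2 further from it. The log2 fold change of Nfatc2 was then -0.44, -0.68, -0.79 and -0.28 by rising distance, and it stayed called in HFD-50% and HFD-75% and lost its call in HFD-25% and HFD-U. That of Calm2 was -0.69, -0.93, -0.77 and -0.55 in the same order, called in each. Nfatc2 stood at 16.5 and 19.4 CPM in the 2 low-share controls and at 18.5 to 30.9 CPM in the 4 high-share ones; Calm2 stood at 145 and 190 CPM against 127 to 167 CPM. All 24 runners were below both low-share controls for Calm2, and 22 for Nfatc2. The part of the rRNA-linked share in the Nfatc2 difference was not tested beyond these values and the covariate fits given below.

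Over all 6 groups, the test for any difference between groups called 2 of the 9, where 12.2% of all 12053 genes were called. Both passed adjustment over all genes, which 1.45% did (edgeR adjusted p = 0.00387 for Nfatc2 and 0.0114 for Calm2). With running distance as a linear and a quadratic term over the 30 HFD mice, 2 of the 9 were again called (12.2% of all genes), and both passed adjustment, which 0.683% of genes did, with edgeR adjusted p of 0.00182 for Nfatc2 and 0.00258 for Calm2. Within the 24 runners alone, 2 of 9 were called against 8.49% of all genes, both at an edgeR adjusted p of 0.542; neither was called without HFD-U mouse 6, and 1 of them was not called without HFD-50% mouse 1, 2 or 4, HFD-75% mouse 2, or HFD-U mouse 1 or 2. Leaving out any 1 mouse kept the adjusted p between 0.000368 and 0.0165 for Nfatc2 over the 6 groups and between 0.0049 and 0.0319 for Calm2. When the rRNA-linked share entered as a covariate, the edgeR adjusted p rose to 0.180 and 0.0535 over the 6 groups, and to 0.127 and 0.0182 over distance in the 30 mice. With the slow fibre level as a covariate, that of Calm2 over the 6 groups was 0.0504. In the low-share libraries of those mice, distance gave 0.235 for Nfatc2 and 0.0553 for Calm2, so neither passed an adjusted 0.05 there.

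HFD-50% was also set against HFD-U, the restricted against the unrestricted wheel. Nfatc2 and Calm2 were again the 2 of 9 called, both lower in HFD-50% (log2 fold change -0.41 ± 0.184 and -0.38 ± 0.135), where 12.4% of all genes were called. The edgeR adjusted p was 0.385 and 0.294, and the Nfatc2 call was lost without HFD-50% mouse 2, 4, 5 or 6 or HFD-U mouse 3 or 6, the log2 fold change being -0.23 without HFD-U mouse 6. Neither gene was called once the rRNA-linked share was a covariate. Between the sedentary groups, NFD-C against HFD-C, 0 of the 9 were called by edgeR or DESeq2 (unadjusted p up to 0.05), against 4.12% of all genes, with log2 fold changes between -0.45 ± 0.281 for Rcan2 and 0.18 ± 0.1397 for Calm3. One gene was called and lower in NFD-C in 6 of these fits that left out 1 mouse: Rcan2 without NFD-C mouse 1 (-0.68) or HFD-C mouse 3 or 5, Nfatc2 without NFD-C mouse 4 (-0.43) or HFD-C mouse 6, and Calm2 without NFD-C mouse 2 (-0.30).

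The other NFATc genes were not called in any of these comparisons by the main edgeR fits, although some alternatives called Nfatc1 or Nfatc3. Nfatc1, the most abundant NFATc gene here, encodes NFATc1, studied in muscle for its effect on fibre type. Its lowest, median and highest level was 30.2, 39.2 and 49.7 CPM in HFD-C and 27.2, 32.5 and 38.4 CPM in HFD-U, and it ran from 27.0 to 48.6 CPM over all runners. Its log2 fold change against HFD-C was between -0.25 ± 0.129 in HFD-U and -0.03 ± 0.167 in HFD-50%, and no exercise group was called, although it was in HFD-U without HFD-C mouse 4 or 5 or HFD-U mouse 2 (-0.30 to -0.31) and with the slow fibre level as a covariate (-0.27). That covariate also called it in HFD-50% against HFD-U, at 0.52 where the value without the covariate was 0.22. Against the 2 low-share controls it was 0.01, 0.16, 0.07 and -0.07 by rising distance, none called, with the sign turned in HFD-25%, HFD-50% and HFD-75%. Nfatc3 ran from 20.2 through 24.9 to 37.3 CPM in HFD-C and from 14.5 to 36.1 CPM in the runners, with log2 fold changes from -0.24 ± 0.216 to 0.05 ± 0.162; without HFD-50% mouse 1 the value in HFD-50% was -0.42 and called. It was called and higher in HFD-U with the rRNA-linked covariate (0.40). In HFD-50% against HFD-U its value was -0.28 and not called, but it was called without HFD-50% mouse 1 (-0.47), with the mouse number as a block (-0.33) and in mice 2 to 6 (-0.38). Over the 6 groups it was called under 1 of 7 alternatives, over distance in the 30 mice under 2 of 8 and in 1 fit without 1 mouse, and over distance in the 24 runners under 1 of 7 and in 1 fit without 1 mouse. Against the low-share controls Nfatc3 was 0.12, 0.08, 0.10 and 0.35, none called, with the sign turned in HFD-25%, HFD-50% and HFD-75%. Nfatc4, with 24 to 108 counts per library, ran from 2.09 through 3.19 to 4.30 CPM in HFD-C and from 1.56 to 5.05 CPM in the runners, with log2 fold changes from -0.34 ± 0.258 in HFD-U to 0.13 ± 0.260 in HFD-25%; against the low-share controls these were 0.35, 0.28, 0.21 and -0.13 by rising distance, none called. The runners overlapped HFD-C for each of these genes in every comparison.

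Within the NFATc family, taken per length, Nfatc2 made up 22.4% ± 3.13 (SD, n = 6) of the summed FPKM in HFD-C and 19.3% ± 4.63 in NFD-C. It made up 15.9% ± 4.82, 13.8% ± 3.57, 13.0% ± 1.39 and 17.8% ± 5.00 in the exercise groups by rising distance. Nfatc1 gave the largest share in each group, from 44.4% ± 3.61 in HFD-U to 51.7% ± 5.85 in HFD-50%.

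Calm3, the second calmodulin gene of the list, did not follow Calm2. Its lowest, median and highest level was 183, 269.7 and 306 CPM in HFD-C. The same values were 141, 269 and 326 CPM at 2.1 km/day, 104, 229.5 and 294 CPM at 4.2 km/day, 226, 276 and 366 CPM at 6.3 km/day, and 206, 265 and 367 CPM at 8.3 km/day. Its log2 fold change against HFD-C ran from -0.24 ± 0.209 in HFD-50% to 0.13 ± 0.158 in HFD-75%, and the groups overlapped throughout. Against the low-share controls it was -0.21, -0.39, -0.03 and -0.11 by rising distance, none called, with the sign turned in HFD-75% and HFD-U. In HFD-50% against HFD-U Calm3 was called with the mouse number as a block (-0.32) and under none of the other alternatives. The difference between Calm2 and Calm3 was not tested.

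Ppp3ca, the alpha catalytic subunit of calcineurin, had a lowest, median and highest level of 206, 267 and 312 CPM in HFD-C and of 226, 259 and 312 CPM in NFD-C. The runners had 181, 226 and 255 CPM at 2.1 km/day, 177, 216 and 271 CPM at 4.2 km/day, 202, 236 and 285 CPM at 6.3 km/day, and 203, 222 and 264 CPM at 8.3 km/day. Its log2 fold change against HFD-C was -0.27 ± 0.133, -0.29 ± 0.151, -0.13 ± 0.132 and -0.23 ± 0.127 in the order of distance, none of them called. Without HFD-C mouse 4 it was called in HFD-25% (-0.33), HFD-50% (-0.35) and HFD-U (-0.29), and also without HFD-25% mouse 2, HFD-C mouse 1 or HFD-50% mouse 4 in their comparisons. Against the 2 low-share controls, which had 297 and 312 CPM, all 24 runners were lower and the log2 fold change was -0.48, -0.50, -0.35 and -0.45, called in HFD-25%, HFD-50% and HFD-U and not in HFD-75%. The rRNA-linked covariate gave calls in the same 3 groups (-0.46, -0.43 and -0.43). Ppp3cb was the larger catalytic gene, at 66.7% ± 1.35 of catalytic calcineurin FPKM in HFD-C, and was not called in any comparison of pairs. Ppp3r1, the regulatory subunit, was called only in HFD-50% against HFD-C among these pairs (log2 fold change -0.38 ± 0.152, edgeR adjusted p = 0.386). Ppp3r2, a regulatory subunit known from testis, had 0 counts in all libraries.

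The Rcan genes were not called in any of these comparisons by the main edgeR fits. Rcan1, whose shorter form is known as a target of NFAT itself, had a lowest, median and highest level of 53.1, 112 and 247 CPM in HFD-C and of 48.7, 95.7 and 280 CPM in NFD-C. In the runners it ran from 57.6 to 162 CPM in all 24, and its log2 fold change against HFD-C was -0.54 ± 0.286, -0.47 ± 0.291, -0.33 ± 0.2998 and -0.25 ± 0.310 by rising distance, none called. Without HFD-C mouse 3 it was called in HFD-25% (-0.69) and HFD-50% (-0.62), and without HFD-C mouse 5 in HFD-25% (-0.66). It was also called in HFD-25% with no minimum count (-0.53) and in HFD-50% with the slow fibre covariate (-0.68). Without HFD-C mouse 1, the mouse at 247 CPM, the log2 fold change moved the other way, to -0.20, -0.13, 0.0049 and 0.08 by rising distance, none called, with the sign turned in HFD-75% and HFD-U. Against the low-share controls the values were -0.13, -0.07, 0.06 and 0.14, so the sign turned in HFD-75% and HFD-U. Rcan2, lower per length than Rcan1 in this muscle, ran from 24.5 through 51.6 to 69.9 CPM in HFD-C, from 25.3 through 28.5 to 62.2 CPM in NFD-C and from 31.3 to 105 CPM in the runners. Its log2 fold change against HFD-C was between 0.10 ± 0.274 and 0.16 ± 0.292 in the exercise groups, and 0.38, 0.32, 0.33 and 0.34 by rising distance against the low-share controls, none called. For each of the 9 genes, the means of groups next to each other in order of level differed by less than their pooled SD.

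**Figure D3:**
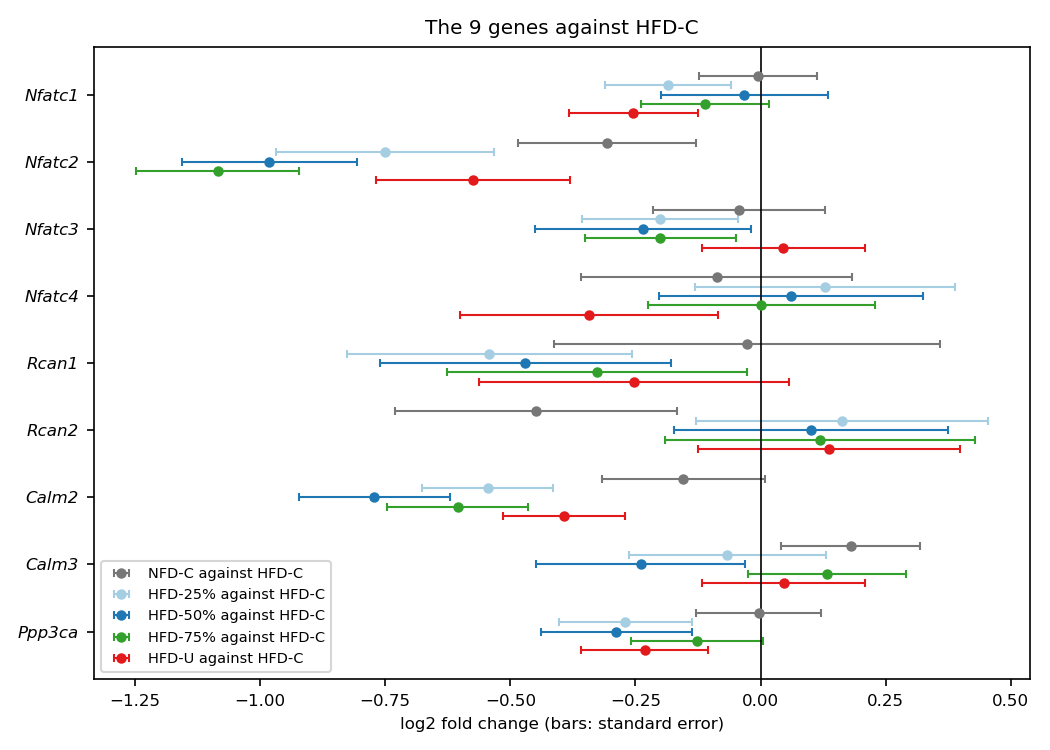
Log2 fold change against HFD-C (points) with its standard error (bars) for the 9 genes in NFD-C and the 4 exercise groups, from edgeR fits of 2 groups. Of the 9, Nfatc2 and Calm2 were called in these fits, with points between -0.39 and -1.08 in the exercise groups.

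**Figure D4:**
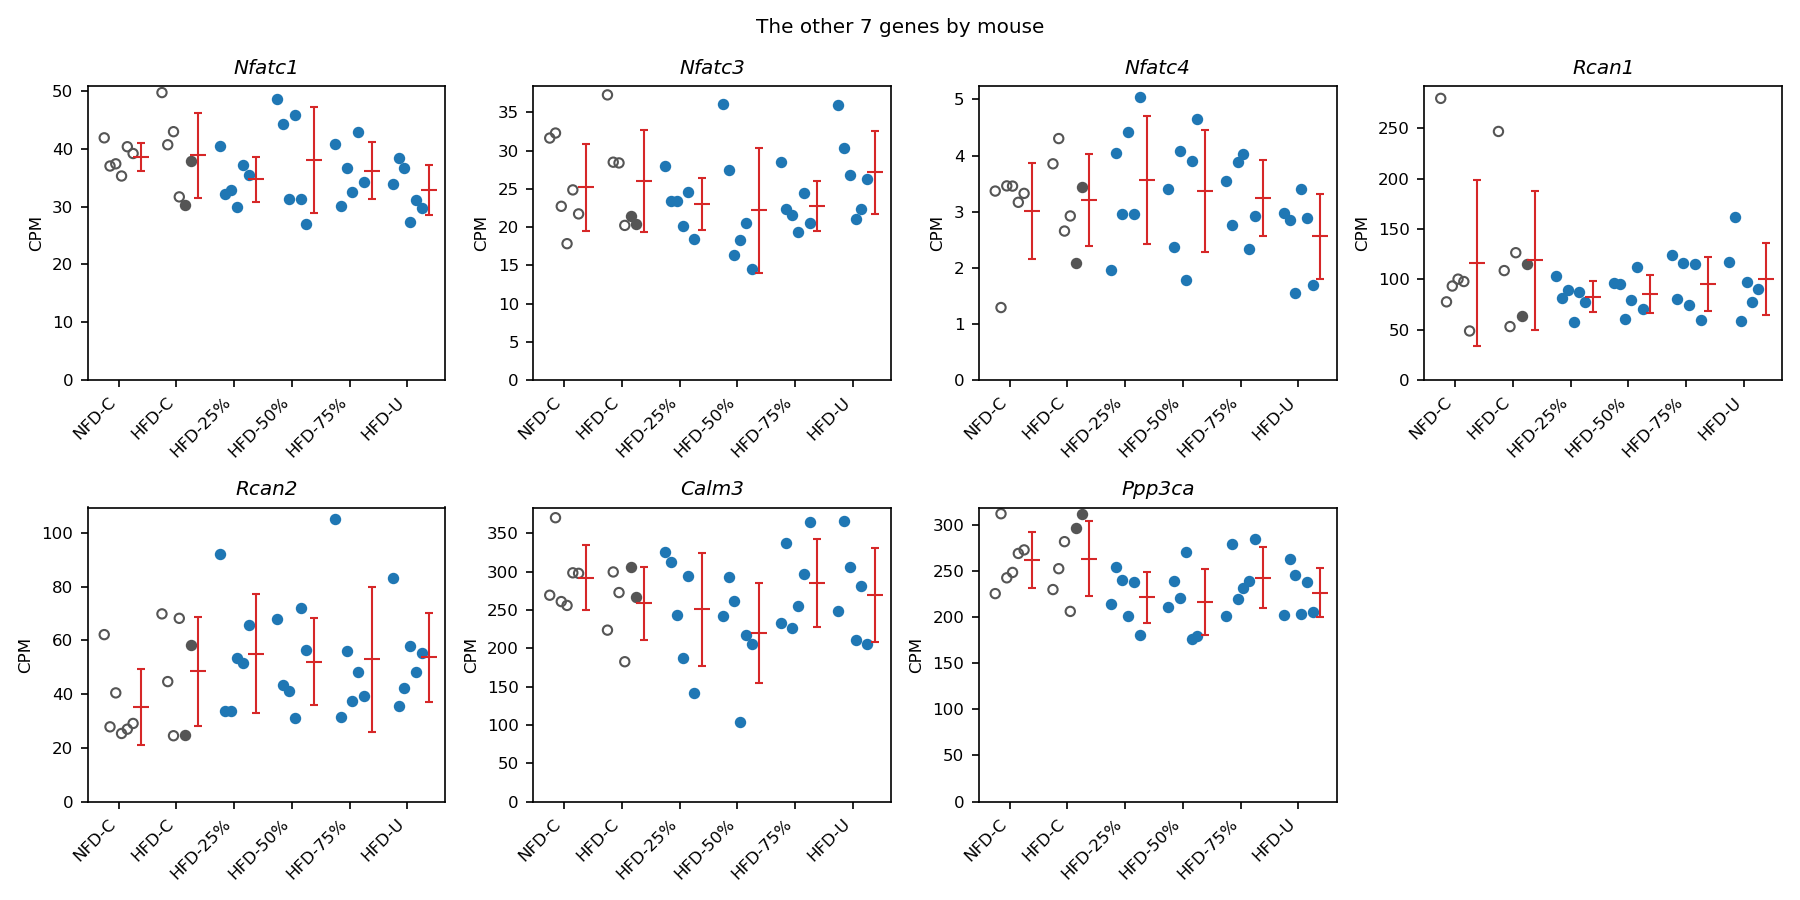
Level in CPM (vertical axes from 0) of the other 7 genes in each mouse by group; open circles are libraries with a high rRNA-linked share, filled circles those with a low share, and red bars the mean ± SD. Each exercise group overlaps HFD-C for every gene, and Rcan1 reaches 280 CPM in 1 NFD-C mouse.

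Some cell type markers were also called against HFD-C, where 6.98%, 10.7%, 5.47% and 5.46% of all genes were called by rising distance. With few markers per list, nothing is read from the counts. The Schwann cell, smooth muscle and skeletal muscle markers had 0 calls in each exercise group. Of 4 fast 2B fibre markers, 1 was called, lower in HFD-50%. Of 4 fibroblast markers, 2, 1, 2 and 0 were called lower by rising distance. Of 6 endothelial markers, 3, 2, 1 and 0 were called higher in the same order. The adipocyte markers, 4 or 5 of 6 tested, had median log2 fold changes of -1.71, -0.78, -1.08 and -2.04, with 1, 0, 0 and 3 called lower; all 6 summed to 2.71 to 88.3 CPM in HFD-C, 1.10 to 24.2 CPM at 2.1 km/day, 3.06 to 38.9 CPM at 4.2 km/day, 2.18 to 85.9 CPM at 6.3 km/day and 1.56 to 15.0 CPM at 8.3 km/day. Of 5 blood markers, 1 was called lower in HFD-75% and 1 in HFD-U. The 8 immune markers summed to 11.7 to 18.4 CPM in HFD-C, 7.76 to 20.8 CPM at 2.1 km/day, 9.76 to 17.6 CPM at 4.2 km/day, 7.35 to 15.3 CPM at 6.3 km/day and 8.01 to 20.4 CPM at 8.3 km/day, and of those tested 2 were called lower in HFD-75% and 1 in HFD-U. The part of these cells in the Nfatc2 difference was not tested. In bulk muscle, fewer cells of a type and less RNA per cell cannot be told apart.

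Fibre make-up went with some of the genes from mouse to mouse. The measure was the mean log2 CPM of 12 slow fibre genes, among them Myh7, the slow myosin heavy chain, and each mouse was taken as its deviation from its group mean, over 36 mice and 9 relations with permutation within groups. Rcan2 rose with the slow fibre genes (r = 0.64, rho = 0.64, adjusted permutation p = 0.000495 and 0.0009), and so did Rcan1 (r = 0.54, rho = 0.47, adjusted permutation p = 0.0132 and 0.0159). Ppp3ca went the other way (r = -0.61, rho = -0.61, adjusted permutation p = 0.000495 and 0.0009), as did Calm3 (r = -0.43, rho = -0.50, adjusted permutation p = 0.0169 and 0.0109). The inverse relation was not particular to Ppp3ca among the calcineurin subunits. Outside the 9, Ppp3cb (r = -0.64, rho = -0.65) and Ppp3r1 (r = -0.64, rho = -0.63) went the same way. Without the 2 mice farthest from the median, r was 0.56 for Rcan2, 0.45 for Rcan1, -0.57 for Ppp3ca and -0.42 for Calm3. Nfatc2 and Calm2, which were called lower in each exercise group than in HFD-C, gave r of 0.19 and -0.30 (adjusted permutation p = 0.429 and 0.228). The other NFATc genes had adjusted permutation p of 0.228 to 0.633. The slow fibre genes themselves were called in 2 of 12 cases in HFD-50% against HFD-C, both higher, where 10.7% of all genes were called. In HFD-50% against HFD-U 8 of 12 were called, all higher, where 12.4% of all genes were. By edgeR 0 of the 12 passed an adjusted 0.05 in either comparison.

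**Figure D5:**
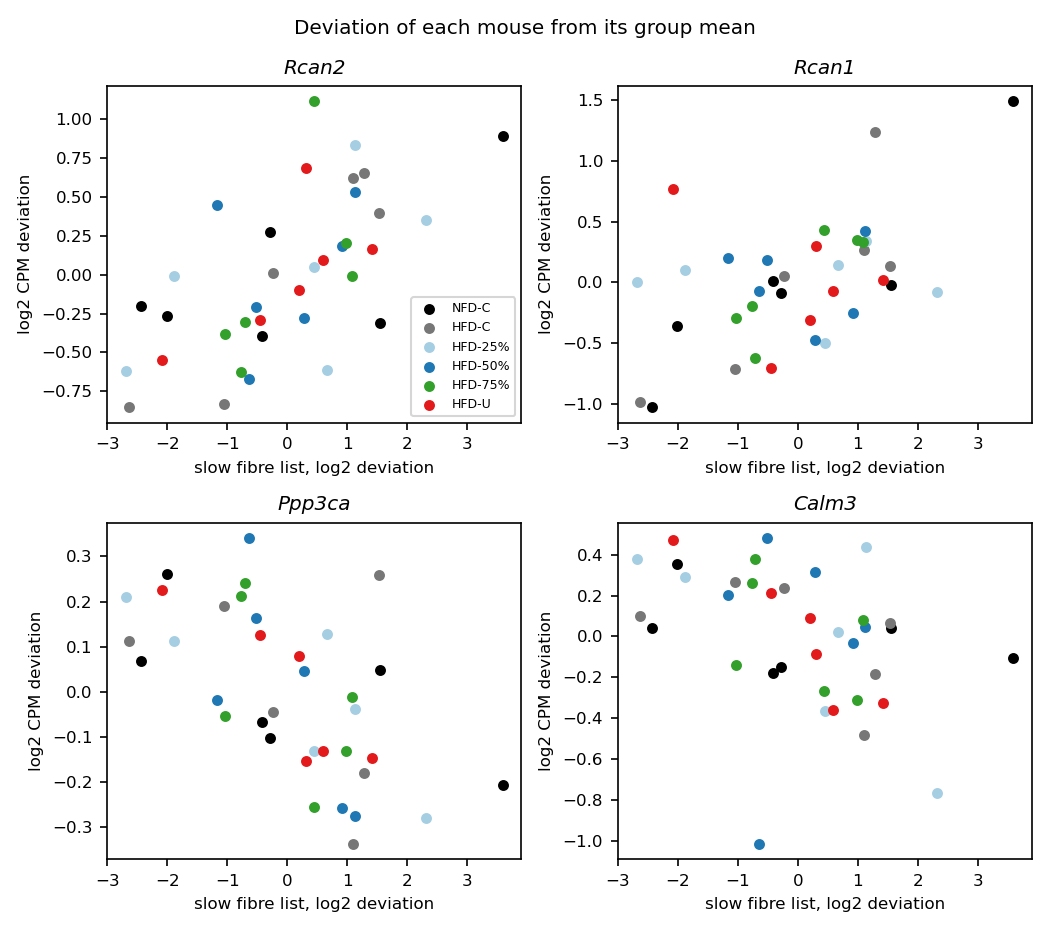
Deviation of each of the 36 mice from its group mean in log2 CPM for Rcan2, Rcan1, Ppp3ca and Calm3 (vertical axes) against the same deviation of the mean of 12 slow fibre genes (horizontal axes), with groups by colour. Pearson's r is 0.64 for Rcan2, 0.54 for Rcan1, -0.61 for Ppp3ca and -0.43 for Calm3.

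Members differed in which genes their levels followed over the 36 mice, as log2 CPM, a description in which mice share library preparation and group. Rcan2 was nearest to Hadhb (r = 0.96, rho = 0.96) and Hadha (r = 0.95, rho = 0.94), the subunits of the mitochondrial enzyme that shortens fatty acids. Calm3 was nearest to Pkm (r = 0.94, rho = 0.91), a glycolytic kinase, and Phkg1 (r = 0.94, rho = 0.91), a subunit of the kinase that activates glycogen breakdown and itself contains calmodulin. Ppp3ca was nearest to Vapa (r = 0.87, rho = 0.86) and Me1 (r = 0.86, rho = 0.87). Nfatc3 was nearest to Nup153 (r = 0.90, rho = 0.84) and Dyrk1a (r = 0.90, rho = 0.90), a kinase known to phosphorylate NFAT. Rcan1 was nearest to Xirp1 (r = 0.81) and Zfp770 (r = 0.80). These fell to 0.61 without the 2 mice farthest from the median of Xirp1 and to 0.64 without the 2 farthest from that of Zfp770. For the genes called lower in the runners, the nearest were Plekha6 (r = 0.73) and Nfib (r = 0.69) for Nfatc2 and Sec14l5 (r = 0.79) and Cxxc5 (r = 0.79) for Calm2. Within groups these were 0.52, 0.42, 0.63 and 0.59. Nfatc1 was nearest to Gatad2b (r = 0.78) and Taf7 (r = 0.76), and Nfatc4 to Lgi4 (r = 0.71) and Cbx6 (r = 0.69). Among the members, Rcan2 and Ppp3ca were the most opposed (r = -0.73, rho = -0.78), and Nfatc2 with Calm2 had r = 0.45 over all mice and -0.20 within groups.

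A list of 67 other genes held genes of the pathway and the 12 slow fibre genes, and 63 passed the limit on low counts. It had 1 called gene at 2.1 km/day (lower), 9 at 4.2 km/day (2 higher, 7 lower), 1 at 6.3 km/day (lower) and 3 at 8.3 km/day (lower), against the shares of all genes given above. The list had 1 (higher) in NFD-C against HFD-C and 14 (9 higher, 5 lower) in HFD-50% against HFD-U. Of the higher calls, slow fibre genes gave 2 in HFD-50% against HFD-C and 8 in HFD-50% against HFD-U. The median log2 fold change of the 63 was -0.06, -0.09, -0.05 and -0.09 by rising distance, against -0.0091, 0.0103, -0.0009 and -0.0051 over all genes. By the smallest p, the genes were Nos1 (log2 fold change -0.70 ± 0.254), the neuronal nitric oxide synthase that needs calmodulin, Akap6 (-0.68 ± 0.252), which anchors calcineurin, and Myoz3 (-0.72 ± 0.274), which binds calcineurin at the Z disc, all lower in HFD-50%. Dyrk2, a kinase that can act on NFAT, was lower in HFD-25% (-0.57 ± 0.128), and Camkk2, which activates calmodulin-dependent kinases, in HFD-75% (-0.53 ± 0.236). Cib1 (-0.75 ± 0.239), Dyrk2 (-0.44 ± 0.165) and Mylk2 (-0.35 ± 0.146), the skeletal myosin light chain kinase, were lower in HFD-U, and Crtc1 was higher in NFD-C (0.41 ± 0.152). In HFD-50% against HFD-U the leading 3 were slow fibre genes, Myh7b (2.26 ± 0.606), Myh7 (1.99 ± 0.540) and Atp2a2 (1.36 ± 0.385), the slow calcium pump. By edgeR's adjustment over all genes, 0 of the 63 passed 0.05 in any comparison, and the calls above are all unadjusted.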

How the data were processed

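The values are counts per gene that the authors deposited for 36 libraries, made per the submitters' processing notes with HISAT2 2.0.5 and featureCounts 1.5.0-p3. The notes name mm10, but sequence versions in the deposited table are those of GRCm39, so positions are given as GRCm39. Gene lengths deposited by the authors in the same table served for the FPKM. Features without a gene name held 0.151 to 0.576% of counts and were kept in library sizes.

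The members and lists were chosen with earlier results of these data known. Groups followed the treatment labels. Each fit used edgeR 4.0.16 in R 4.3.3 (TMM, quasi-likelihood F-test, two-sided) on genes whose counts averaged 25 or more in the fitted libraries, and adjusted p by Benjamini-Hochberg over all of them. A gene was called at an unadjusted p of at most 0.05, the limit that the study's methods use. Fits of 2 groups held those 12 mice. CPM used the library total after TMM normalization, and log2 CPM for correlations used the same totals and a prior count of 2. The rRNA-linked share used the library total without normalization. Permutations were made within groups (100000 draws). The libraries differed beyond sampling noise within every group (chi-square per degree of freedom 14.7 to 181 over 90 pairs), so none was counted as a repeat. P-values measure the spread between mice.

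All 9 members, the 3 pathway genes with the smallest p per comparison, the calcineurin subunit genes and the 2 genes nearest to each member were named by rule, except for 1 gene that is not reported here and was left out of the lists. Mouse numbers were not given as a pairing in the labels. Every same-numbered pair of HFD-U and HFD-C had a correlation above 0.1, a limit set here, and in the other comparisons not every pair did. Alternatives were DESeq2 1.42.0, RLE normalization, no minimum count, the mouse number as a block, the rRNA-linked share as a covariate, mice 2 to 6 only, low-share HFD-C libraries only (a share below 1.5%), each mouse left out, and, chosen after seeing the data, the slow fibre level as a covariate and distance in the low-share libraries. The edgeR script was tested on simulated data.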

Additional observations from a re-analysis of the deposited data

Results flagged for a closer look

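In 6 of 54 sets of a gene and a group, 1 mouse stood apart from the other five by Dixon's 95% limit, where chance gives about 1 in 20. Nfatc2 had 23.2 CPM in HFD-25% mouse 6, with the others of the group at 9.35 to 14.4 CPM. It had 23.97 CPM in HFD-U mouse 6, with the others at 11.4 to 14.3 CPM; these are the runners that lay within the HFD-C range. Rcan1 had 279.9 CPM in NFD-C mouse 1, with the others at 48.7 to 100.3 CPM. Rcan2 had 105.3 CPM in HFD-75% mouse 1, with the others at 31.5 to 55.9 CPM. Calm3 had 370.6 CPM in NFD-C mouse 2, with the others at 256 to 299 CPM. Nfatc4 was the one low value, 1.29 CPM in NFD-C mouse 2, with the others at 3.17 to 3.46 CPM.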

How the results depend on the processing

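Of the 9 genes, 2 were called in every comparison except NFD-C against HFD-C, where 0 were. The count was 4 in HFD-U against HFD-C with the replicate block and with the slow fibre covariate, and 4 over the 6 groups with the replicate block. In NFD-C against HFD-C it was 2 once the rRNA-linked share was a covariate, 2 with the slow fibre covariate and 1 in mice 2 to 6. In HFD-50% against HFD-U it was 0 with the rRNA-linked covariate. For distance in the 24 runners it was 1 with the rRNA-linked covariate, 1 with the slow fibre covariate and 1 in mice 2 to 6. Without 1 mouse, the count ran from 2 to 3 in HFD-25%, 2 to 3 in HFD-50%, 2 to 2 in HFD-75% and 2 to 4 in HFD-U against HFD-C, 0 to 1 in NFD-C against HFD-C, 1 to 3 in HFD-50% against HFD-U, 2 to 3 over the 6 groups, 2 to 3 for distance in 30 mice and 0 to 2 for distance in 24 mice. Rcan1 in NFD-C against HFD-C went from -0.03 to 0.74 (log2) with the slow fibre covariate and was then called. Of the fold changes called, 183 alternative values kept the call and 15 lost it without a change of sign, all of them for Nfatc2 or Calm2; Nfatc2 lost it in HFD-25% (-0.47) and HFD-U (-0.32) under the rRNA-linked covariate. Of the fold changes not called, 43 alternative values were called with the same sign, and 1, the Rcan1 value above, with the sign turned. In HFD-50% against HFD-U, Nfatc2 also lost its call with the slow fibre covariate (-0.42), where Nfatc1 was called, and Calm2 lost its call in mice 2 to 6 (-0.32), where Nfatc3 was called. The cause of these shifts was not tested. In comparisons other than HFD-U against HFD-C, 1 to 5 of 6 same-numbered pairs were above a correlation of 0.1. With the block, the Nfatc2 call in HFD-50% against HFD-U was lost (-0.38). Depth limits Nfatc4 most, with 24 to 108 counts per library.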
